A study of Mus musculus with 36 samples.

Results

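Solute carriers are the membrane proteins that move sugars, amino acids, phosphate, organic ions, metals and metabolites across the plasma membrane and the membranes of organelles. The mouse genes whose symbol carries a solute carrier (Slc) family number were taken from the count table, leaving out Slc12a1, Slc12a3, Slc4a1, Slc4a9 and Slc26a4. Of 366 such genes, 254 in 49 families had 10 or more counts in 18 or more of the 36 libraries and are described here as the members. The rule used no difference between groups. It also took in 4 genes that are not carriers: Slc9a3r1 and Slc9a3r2, which encode scaffold proteins, and Slc4a1ap and Slc7a6os, which are named after a carrier.

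RNA was taken from whole kidneys of C57BL/6 mice on the first day of postnatal life (P1), at P3 and at P7. WT mice carried the floxed allele alone (Pkd1 f/f or Pkd2 f/f), and KO mice carried the same floxed allele together with HoxB7-Cre. HoxB7 drives Cre in the collecting duct and its precursor, so that Pkd1 or Pkd2 was left floxed but intact in the other nephron segments of KO kidneys. Each of the 12 groups (2 models, 2 genotypes, 3 ages) held 3 libraries. The WT kidneys of a model were littermates of its KO kidneys, and p-values measure the spread between these 3 libraries of a group.

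In the mature nephron, the proximal tubule reclaims nearly all filtered glucose, amino acids and phosphate and secretes organic anions and cations, through carriers that sit in its brush border and its basolateral membrane. These carriers are acquired as the nephron matures after birth, and mouse nephron formation ends within the first days of postnatal life. Other families act in every cell: Slc25 in the inner mitochondrial membrane, Slc35 in the Golgi membrane, and Slc30 and Slc39 in zinc transport.

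Library totals ran from 7179152 to 15850818 counts. Y-linked genes had over 100 counts together in 0 of 3 Pkd1 WT libraries at P7 and in 3 of 3 Pkd1 KO libraries at P7, so that sex and genotype cannot be told apart in that comparison. In the Pkd2 model at P7 they did so in 2 of 3 WT and 3 of 3 KO libraries, and WT replicate 3 was the library without them. At P3 all 6 Pkd1 libraries had them. The summed level of the adrenal genes Star, Cyp11a1 and Cyp21a1 was 16387 normalized counts in Pkd1 KO P7 replicate 1, 14226 in Pkd2 KO P7 replicate 3 and 58407 in Pkd2 WT P3 replicate 2, against 121 to 191 in the WT libraries at P7. Results at P7 are therefore also given without the first 2 of these libraries.

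Several well-known renal carriers could not be followed. The table has a row per RefSeq transcript, and genes with 2 or more rows had few counts: 24 of 88 such Slc genes met the count rule, against 230 of 278 with 1 row. Gapdh, with 2 rows, reached a mean of 1.81 counts. The highest row of Slc4a4, the basolateral sodium bicarbonate cotransporter, was at 0 counts in all libraries, and that of Slc22a8, Slc7a9, Slc7a7, Slc5a12, Slc17a1 and Slc6a18 averaged between 0 and 2.56 counts. Such values are not read here as absence of expression.

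Among the members, levels compared per kilobase of transcript were highest for Slc34a1, the main brush border sodium phosphate cotransporter, in WT kidneys at P7. It stood at 10926 normalized counts per kb in Pkd1 WT and 11697 in Pkd2 WT. Next came the mitochondrial ADP/ATP carrier Slc25a5, at 9195 and 10707 per kb, and the mitochondrial phosphate carrier Slc25a3, at 8038 and 8897 per kb. At P1 the order was different in both models, with Slc25a5 first at 8131 per kb in Pkd1 WT and 10247 in Pkd2 WT. Slc34a1 was then at rank 4 in each, with 3941 and 5178 per kb. The acyl-CoA synthetase and fatty acid carrier Slc27a2 was at rank 6 at P7, with 2045 and 2243 per kb. As a share of all counts, the 254 members took 1.46% to 1.66% in Pkd1 WT at P1, 1.94% to 2.07% in Pkd1 WT at P7 and 1.31% to 1.52% in Pkd1 KO at P7. The corresponding ranges for Pkd2 were 1.60% to 1.95%, 1.996% to 2.18% and 1.69% to 1.71%. WT and KO did not overlap at P7 in either model.

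**Figure D1:**
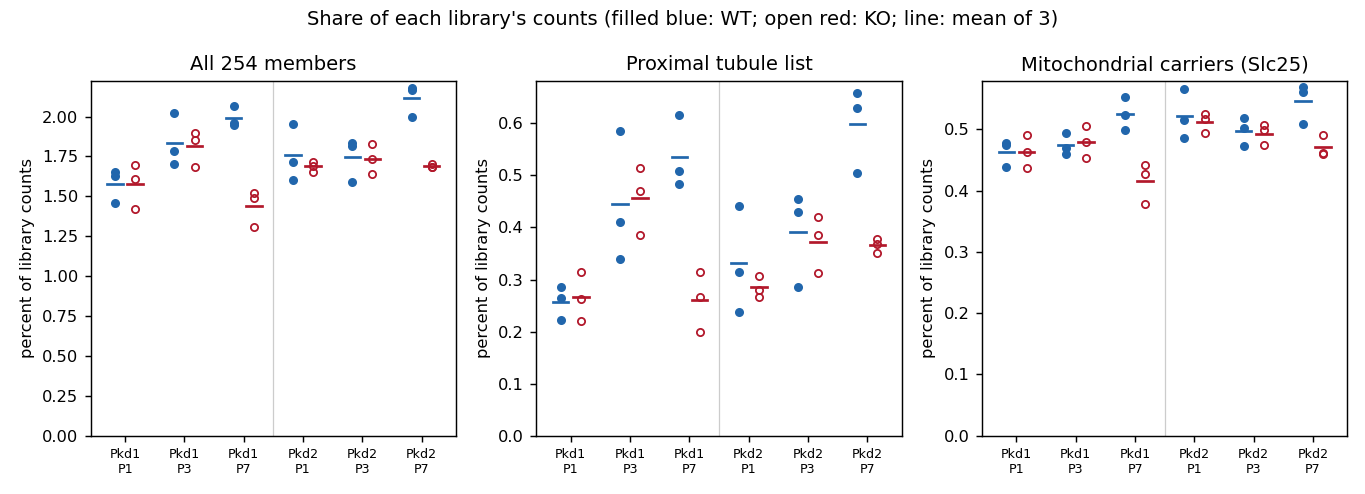
Percent of each library's counts on all 254 members (left), on the 33 members of the proximal tubule list (middle) and on the Slc25 mitochondrial carriers (right), by model and age, with WT as filled blue and KO as open red points and a line at the mean of 3. At P7 the KO points lie below the WT points in all 3 panels for both models, with the proximal tubule list at 0.198% to 0.315% in Pkd1 KO against 0.483% to 0.615% in Pkd1 WT.

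The first question was how the members changed in WT kidneys between P1 and P7. In Pkd1 WT, 50 members rose and 14 fell at an adjusted p under 0.05 (edgeR quasi-likelihood test, Benjamini-Hochberg over 12527 transcripts). Over all transcripts tested, 8.86% rose and 9.07% fell. In Pkd2 WT, 54 members rose and 14 fell, against 9.02% and 10.2% of 12633 transcripts. Members met a stricter count rule than these transcripts. With 10 counts required in every library fitted, 47 of 224 members rose and 12 fell in Pkd1, against 1054 and 1160 of 10316 transcripts. In Pkd2, 53 of 232 members rose and 15 fell, against 1038 and 1414 of 10672 transcripts. The median log2 fold change of the members was 0.19 in Pkd1 and 0.16 in Pkd2, where that of all transcripts was 0.01 in each. For every called member the libraries of the 2 ages did not overlap, which adds little, as a call with 3 libraries a group nearly requires it. The share over all called transcripts was not counted. The models share no library, and 38 members rose in both, which is 76.0% of those that rose in Pkd1 and 70.4% of those that rose in Pkd2. For all transcripts these shares were 54.9% and 53.4%. The 9 members that fell in both are 64.3% of the 14 in each model, near the 68.7% and 60.6% for all transcripts. Across the 254 members the log2 fold changes of the models had a Pearson r of 0.88 and a Spearman rho of 0.85. Over all 12343 transcripts tested in both models these were 0.71 and 0.72. The counts depended on single libraries. Without Pkd1 WT P7 replicate 1, 31 rose and 9 fell, and without Pkd1 WT P1 replicate 2, 9 fell. Over all transcripts 671 rose and 711 fell in the first of these fits, and 673 and 787 in the second. In Pkd2, 19 rose and 7 fell without P1 replicate 2, and 21 and 6 without P1 replicate 3. There were 20 and 7 without P7 replicate 1, and 26 and 9 without P7 replicate 2. In the same order, 445, 455, 576 and 623 of all transcripts rose, and 645, 631, 774 and 904 fell. Of the members that rose, 30 of 50 in Pkd1 and 17 of 54 in Pkd2 passed in each of the 6 fits without 1 library, and of those that fell, 8 of 14 and 6 of 14. Some of the called members whose change from P1 to P7 is described by name below passed in 3 or fewer. These were Slc5a1, Slc22a22 and Slc38a1 in Pkd1, and Slc1a5, Slc2a2, Slc13a3, Slc22a7, Slc22a22, Slc30a3 and Slc47a1 in Pkd2. Y-linked genes had over 100 counts in 2 of 3 Pkd1 WT libraries at P1 and 0 of 3 at P7. With this as a term in the fit, 3 members rose and 3 fell in Pkd1, and 38 and 12 in Pkd2. Over all transcripts, 60 rose and 148 fell with that term in Pkd1, and 887 and 1082 in Pkd2.

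The rise was uneven among families. Of 11 members of Slc16, the monocarboxylate and aromatic amino acid carriers, 9 rose in Pkd1 and 6 in Pkd2, with medians of 0.80 and 0.74. In Slc22, the organic ion carriers, 8 of 21 rose in each model, and 1 fell in Pkd1 and 2 in Pkd2. All 4 members of Slc13, the sodium sulfate and dicarboxylate carriers, rose in Pkd2 and 3 in Pkd1, with medians of 2.002 and 2.08, and 2 of 3 members of Slc34 rose in each. Slc1, the glutamate and neutral amino acid carriers, had a negative median in each model (-0.85 and -0.45), with 2 of 5 members lower in each. Of the 34 mitochondrial Slc25 members, 3 rose in Pkd1 and 5 in Pkd2 and none fell. Over all transcripts 8.86% rose in Pkd1 and 9.02% in Pkd2, so that the Pkd1 count of Slc25 is near that share. Of 11 Slc9 members, the sodium-hydrogen exchangers and their scaffold proteins, 0 changed in Pkd1 by edgeR and 2 rose in Pkd2.

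**Figure D2:**
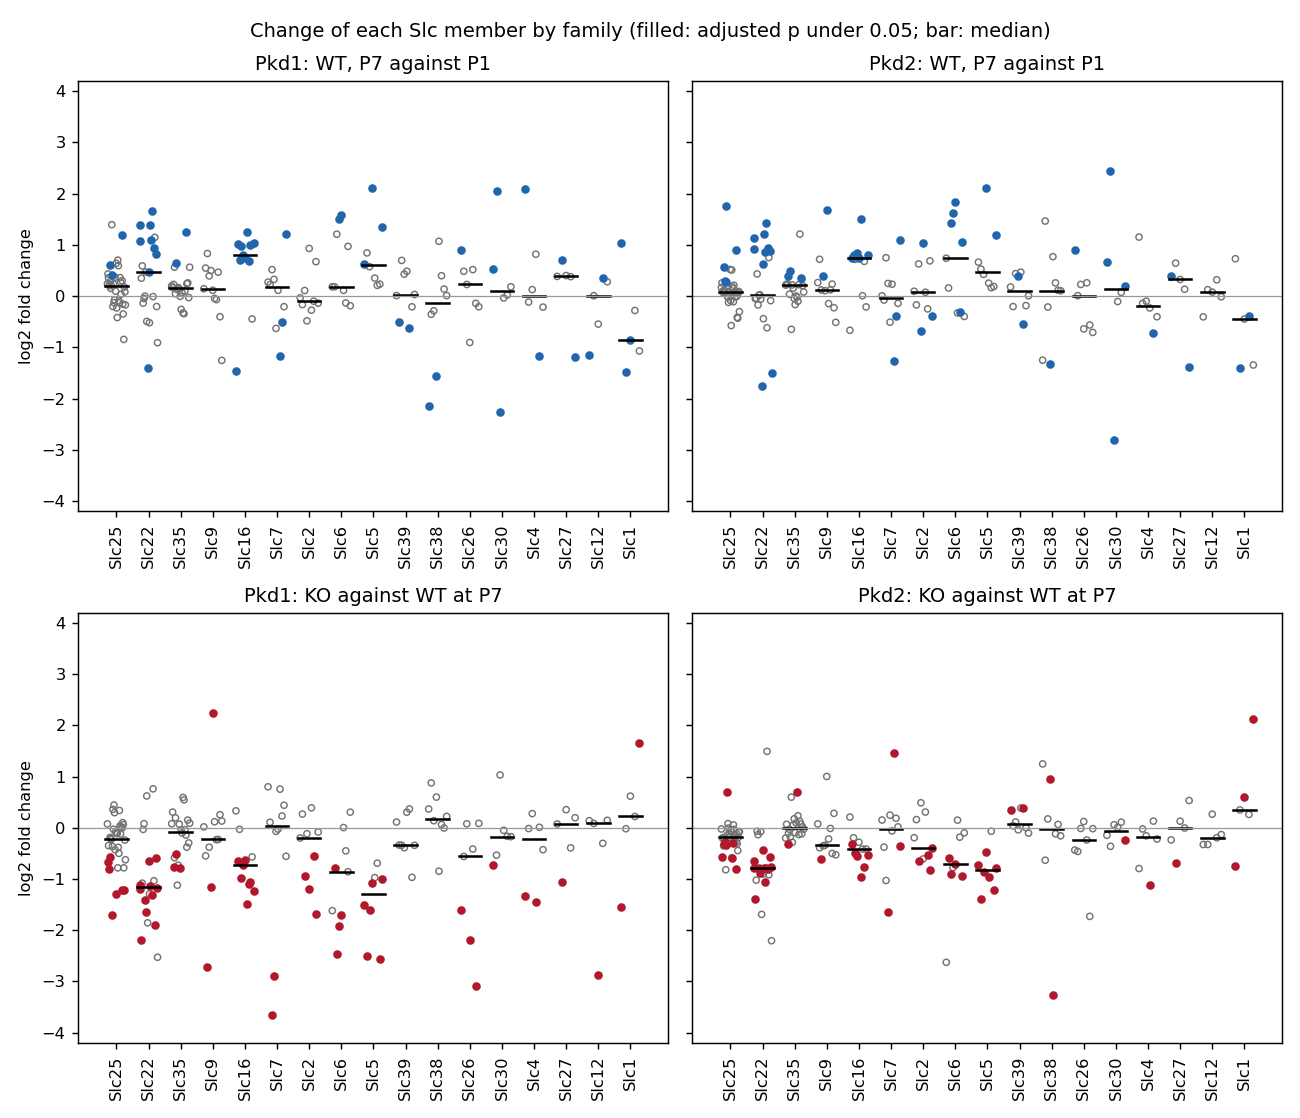
Log2 fold change of each member (points) in the families with 5 or more members, for WT P7 against P1 (upper panels) and KO against WT at P7 (lower panels), with Pkd1 on the left and Pkd2 on the right. Filled points had an adjusted p under 0.05 and bars mark family medians; the medians of Slc22 lie at -1.15 (Pkd1) and -0.78 (Pkd2) in the lower panels, and those of Slc5 at -1.29 and -0.83.

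Of the 33 members listed here as proximal tubule carriers (42 were listed and 9 did not meet the count rule), 19 rose in Pkd1 WT and 18 in Pkd2 WT, with medians of 0.94 and 0.87, and 1 fell in Pkd2 (Slc22a7, at under 100 counts). The other 221 members had 31 rises and 14 falls in Pkd1 and 36 and 13 in Pkd2, with medians of 0.14 and 0.11. Over the same interval 6 of 9 tested proximal tubule markers that are not carriers (such as Miox and Pck1) rose in each model.

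Both phosphate carriers of the brush border rose in each model. Slc34a1 (chromosome 13, 55399622 to 55414695, build GRCm38.p6) had 8859, 9611 and 10293 normalized counts in Pkd1 WT at P1 and 24539, 19282 and 35927 at P7. It rose by a log2 fold change of 1.47 ± 0.27 (SE, adjusted p = 0.0056 by edgeR) in Pkd1 and 1.18 ± 0.26 (0.015) in Pkd2. Slc34a3 (chromosome 2, 25228897 to 25234270), the second renal member of the family, had 27.5, 10.9 and 24.9 at P1 and 166, 176 and 144 at P7 in Pkd1 WT, and 37.2, 49.2 and 10.4 at P1 and 254, 227 and 159 at P7 in Pkd2 WT. It rose by 2.89 ± 0.52 and 2.71 ± 0.49. The widely expressed phosphate carriers Slc20a1 and Slc20a2 had log2 fold changes between -0.34 and -0.11 and did not pass the test in either model.

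Slc5a2 (chromosome 7, 128265683 to 128272430), which takes up most of the filtered glucose, had 556, 422 and 641 counts in Pkd1 WT at P1 and 2187, 1927 and 2878 at P7. Its rise was 2.104 ± 0.33 in Pkd1 and 2.11 ± 0.19 in Pkd2. Slc5a1, the high-affinity glucose carrier, rose less in Pkd1 (0.63 ± 0.19, adjusted p = 0.040 by edgeR) and had 0.66 ± 0.21 in Pkd2 (0.055). Slc2a2, the basolateral glucose carrier of the proximal tubule, had 0.93 ± 0.30 (0.057) in Pkd1 and 1.04 ± 0.30 (0.039) in Pkd2. Slc2a1, the glucose carrier of most cells, was at 1558, 1490 and 1673 at P1 and 1394, 1945 and 1280 at P7 in Pkd1 WT, so that the ages overlapped.

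Among members that averaged 100 or more normalized counts at the higher age, the largest rises past the test were those of Slc14a2 and Slc34a3 in Pkd1 and of Slc34a3 and Slc30a2 in Pkd2. Slc14a2, the urea carrier of the inner medulla, had 53.9, 38.0 and 7.92 counts at P1 and 378, 764 and 70.7 at P7 in Pkd1 WT, and rose by 3.61 ± 0.84; in Pkd2 its 1.72 ± 1.05 did not pass (adjusted p = 0.28 by edgeR). Slc14a2 is a gene with several transcript rows, so that its counts may leave out part of its reads. Slc13a1, the sodium sulfate cotransporter, rose by 2.82 ± 0.39 and 2.42 ± 0.47, and Slc13a3, the sodium dicarboxylate cotransporter, by 2.30 ± 0.35 and 1.89 ± 0.43. Slc30a2, a zinc exporter, rose by 2.05 ± 0.29 and 2.45 ± 0.42. Slc4a11 rose by 2.08 ± 0.18 in Pkd1 and had 1.15 ± 0.41 in Pkd2 (adjusted p = 0.079), and Slc6a20b rose by 1.59 ± 0.27 and 1.84 ± 0.33.

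The organic ion carriers did not move alike. Slc47a1, through which organic cations leave the cell into the tubule, rose by 1.04 ± 0.21 in Pkd1 and 0.98 ± 0.27 in Pkd2. Slc22a6, the basolateral organic anion exchanger, stood at 3131, 2418 and 2586 in Pkd1 WT at P1 and 2279, 2271 and 2522 at P7, and its -0.20 ± 0.17 and -0.09 ± 0.19 did not pass. Slc22a2 (0.47 ± 0.17 and 0.03 ± 0.28) and Slc22a13 (0.35 ± 0.22 and -0.05 ± 0.23) did not pass either. Near-identical neighbours in this family, such as Slc22a27 to Slc22a30, may share reads, and their separate values are uncertain.

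The members that fell between P1 and P7 included amino acid and lactate carriers and a few members of the Slc22 and zinc families. Slc7a5, which imports large neutral amino acids with its partner Slc3a2, had 825, 796 and 913 counts in Pkd1 WT at P1 and 450, 368 and 311 at P7. It fell by 1.17 on the log2 scale (SE 0.16) in Pkd1 and by 1.27 (SE 0.16) in Pkd2, from 708, 819 and 832 to 329, 326 and 325. Slc38a4, a carrier of small neutral amino acids, had -1.56 ± 0.35 and -1.32 ± 0.20, Slc1a3, a glutamate carrier, -1.48 ± 0.19 and -1.40 ± 0.21, and Slc27a6, of the fatty acid family, -1.19 ± 0.28 and -1.38 ± 0.19, and all of these passed the test in each model. Slc4a7, a sodium bicarbonate cotransporter, had -1.17 ± 0.24 and -0.72 ± 0.12 and passed in each. Slc16a1, the main lactate carrier, fell by 1.45 (SE 0.13) in Pkd1 and had -0.67 ± 0.22 in Pkd2 (adjusted p = 0.066 by edgeR). Slc22a22, of the organic ion family, had 127, 127 and 134 counts at P1 and 31.7, 69.3 and 14.1 at P7 in Pkd2 WT (-1.74 ± 0.47), and fell in Pkd1 as well (-1.41 ± 0.39). Slc30a3, a zinc exporter, fell in each at under 50 mean counts (-2.25 ± 0.45 and -2.80 ± 0.66). Slc1a5, the main glutamine carrier of dividing cells, fell in Pkd2 (-0.39 ± 0.11) and had -0.28 ± 0.16 in Pkd1, while Slc7a11, the cystine and glutamate exchanger, had 0.22 ± 0.36 and -0.08 ± 0.38 and did not pass. Of the 9 members listed as nutrient carriers of dividing cells, 3 fell in Pkd1 and 2 in Pkd2 and 0 rose, with medians of -0.29 and -0.21. Those in Pkd1 were Slc7a5, Slc16a1 and Slc38a1, the last of which passed in 3 of 6 fits without 1 library. The proliferation genes Mki67 and Top2a, which are not members, fell in each model.

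By P3 little of this had passed the test. Slc22a29, in Pkd1, was the 1 member called between P3 and P1 (1.30 ± 0.18, adjusted p = 0.030 by edgeR), where 0.12% of transcripts were called. In Pkd2, 0 members were called, against 0.0317% of transcripts, with 53 members at an unadjusted p under 0.05 and 16 called by DESeq2. DESeq2 called 19 in Pkd1. Over all 12633 transcripts of Pkd2, 1890 had an unadjusted p under 0.05, and DESeq2 called 198 higher and 133 lower. Of all 12527 in Pkd1 it called 164 and 32. Between P3 and P7, 5 members rose and 9 fell in Pkd1, against 2.39% and 5.27% of transcripts. Y-linked counts were 4386, 4081 and 4789 in the Pkd1 WT libraries at P3 and 2, 0 and 5 at P7. Sex and age therefore cannot be told apart in the Pkd1 values from P3 to P7, the median below included. In Pkd2, 43 members rose and 10 fell over that interval, against 7.92% and 10.6% of transcripts. For the proximal tubule list, the median log2 fold change from P1 to P3 was 0.71 in Pkd1 and 0.14 in Pkd2, and from P3 to P7 it was 0.25 and 0.64. The Pkd2 values rest in part on WT P3 replicate 2, the library with 58407 adrenal counts, where the list took 0.286% of all counts, against 0.430% and 0.455% in the other two. Without it, a fit added after seeing the data gave medians of 0.33 from P1 to P3 and 0.44 from P3 to P7. It called 2 members between P3 and P1, and 30 rose and 8 fell from P3 to P7.

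The second question was what KO changed. At P7, 74 members were lower and 3 higher in Pkd1 KO than in Pkd1 WT kidneys, where 7.54% of transcripts were lower and 6.2% higher (edgeR, Benjamini-Hochberg). In Pkd2, 61 members were lower and 12 higher, against 6.06% and 7.82% of transcripts. The lower members make up 29.1% and 24.0% of the 254. Members met a stricter count rule than the transcripts behind these shares. With 10 counts required in every library fitted, 70 of 220 members were lower and 2 higher in Pkd1. Of 10578 transcripts, 967 were lower and 771 higher in that fit. In Pkd2 it gave 63 lower and 12 higher of 237 members, against 800 and 1107 of 10826 transcripts. The median log2 fold change of all 254 members was -0.36 in Pkd1 and -0.19 in Pkd2, where that of all transcripts was -0.01 and 0.00. A total of 44 members were lower in both models, which is 59.5% of those lower in Pkd1 and 72.1% of those lower in Pkd2. For all transcripts these shares were 39.7% and 49.0%. Only 1 member was higher in both (Slc1a6), where 52.3% and 41.2% of the higher transcripts were shared. The WT and KO libraries did not overlap for 73 of the 74 lower members in Pkd1 (Slc14a2 was the exception) and for all 61 in Pkd2. This too is nearly given by the call, and the share over all called transcripts was not counted. In Pkd1, 52 of the lower members fell at least 2-fold, and in Pkd2 9 did.

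These counts moved with the libraries used. Leaving out the library with high adrenal genes (Pkd1 KO P7 replicate 1) gave 32 lower and 0 higher members in Pkd1. Over all 12527 transcripts that fit gave 258 lower and 215 higher. Leaving out KO replicate 2 gave 31 and 0, WT replicate 1 gave 20 and 0, WT replicate 2 gave 49 lower, and WT replicate 3 gave 12 higher. In the same order, the lower counts over all transcripts were 187, 115, 536 and 1640, and the higher counts 160, 109, 490 and 1566. In Pkd2, 38 were lower and 5 higher without the library with high adrenal genes (KO P7 replicate 3), and 36 and 6 without KO replicate 2. Without WT replicate 1 there were 31 and 4, and without WT replicate 2 there were 7 higher. In the same order, the lower counts over all transcripts were 339, 318, 245 and 512, and the higher counts 481, 474, 405 and 725. Without Pkd2 WT P7 replicate 3, which leaves the 5 Pkd2 libraries at P7 with Y-linked counts, 77 were lower and 12 higher. Over all transcripts 986 were lower and 1066 higher in that fit. A fit of all 18 Pkd1 libraries with a term for Y-linked counts called 0 members, with 56 at an unadjusted p under 0.05. Without that term it called 100 lower and 12 higher. Over all 12527 transcripts it called 1 lower and 5 higher with the term, and 2066 and 1816 without. In Pkd1 only WT P1 holds libraries with and without Y-linked counts. In Pkd2 such a fit gave 51 lower and 10 higher with the term and 44 and 10 without. Over all 12633 transcripts it gave 615 and 928 with the term, and 661 and 1025 without. Of the 74 lower members in Pkd1, 19 passed in each of the 6 fits without 1 library and 41 in 3 or fewer, and of the 61 in Pkd2, 29 and 25. Of the 3 higher members in Pkd1 0 passed in each fit, and of the 12 in Pkd2 4 did. Among the members described below, those that passed in 3 or fewer in Pkd1 were Slc1a6, Slc2a2, Slc4a5, Slc5a2, Slc9a3r2, Slc9a4, Slc13a3, Slc14a2, Slc18a1, Slc22a6, Slc24a5, Slc25a21, Slc26a7, Slc27a2, Slc34a1 and Slc34a3. In Pkd2 they were Slc1a4, Slc1a6, Slc2a5, Slc4a5, Slc5a2, Slc5a3, Slc9a3, Slc11a1, Slc34a3, Slc38a4 and Slc47a1.

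Of the 33 proximal tubule carriers, 25 were lower in Pkd1 KO and 26 in Pkd2 KO, and 0 were higher, with median log2 fold changes of -1.30 and -0.72. Over all transcripts 7.54% were lower and 6.2% higher in Pkd1, and 6.06% and 7.82% in Pkd2. The family counts at P7 given below are to be read beside the same shares. Among the other 221 members 49 were lower and 3 higher in Pkd1 and 35 and 12 in Pkd2, with medians of -0.23 and -0.14. The summed level of the 10 proximal tubule markers that are not carriers moved with them, at 13283 to 32104 normalized counts in Pkd1 KO against 73514 to 78721 in Pkd1 WT, and 43823 to 57271 in Pkd2 KO against 90880 to 103409 in Pkd2 WT. Of the 9 tested, 8 were lower in Pkd1 and 7 in Pkd2, and their part in the carriers' fall was not tested. In whole kidney RNA, fewer cells of a type and less RNA per cell cannot be told apart. The deleted genes lie in the collecting duct, whose markers went in both directions: Aqp2 and Aqp3 were lower and Krt8 and Krt18 higher in each model. Hsd11b2, the remaining listed marker, was lower in Pkd2 (-0.44, adjusted p = 0.041 by edgeR) and had -0.73 in Pkd1 (0.071).

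**Figure D3:**
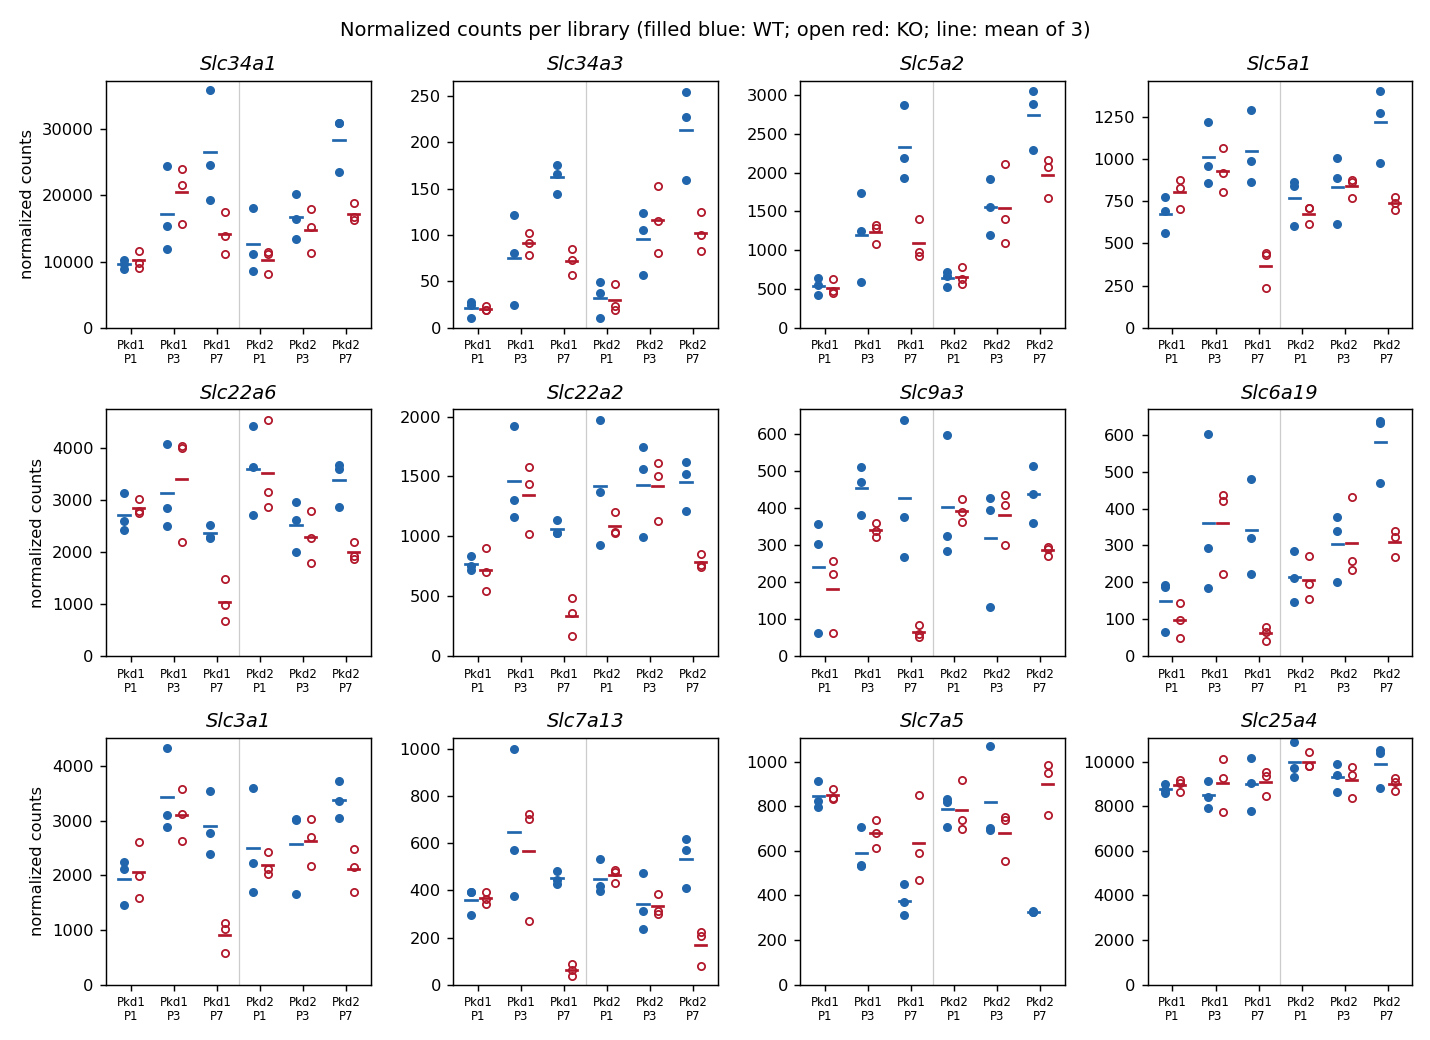
Normalized counts of 12 members in every library, by model and age, with WT as filled blue and KO as open red points and a line at the mean of 3; each panel has its own axis from 0. At P7 the KO points of the first 10 panels lie below the WT points in each model, those of Slc7a5 lie above them, and those of Slc25a4 overlap with them.

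The brush border phosphate carriers were lower in each KO. In Pkd1, Slc34a1 was at 13844, 11121 and 17540 in KO against 24539, 19282 and 35927 in WT at P7, 1.88-fold lower (log2 fold change -0.91 ± 0.25, adjusted p = 0.047 by edgeR). In Pkd2 it was at 18828, 16215 and 16731 in KO against 30894, 30949 and 23534 in WT, 1.65-fold lower (-0.72 ± 0.12, 0.0084). Slc34a3 had 56.6, 73.1 and 84.5 in Pkd1 KO and 100, 82.4 and 125 in Pkd2 KO, 2.27-fold and 2.08-fold lower than WT. In fits without a library, Slc34a1 passed in 1 of 6 in Pkd1 (largest adjusted p = 0.17 by edgeR) and in 6 of 6 in Pkd2. Slc20a1 and Slc20a2 did not pass, at 0.50 ± 0.15 and -0.30 ± 0.12 in Pkd1 and 0.11 ± 0.10 and 0.01 ± 0.06 in Pkd2.

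Among the sugar and lactate carriers of Slc5, 6 of 8 members were lower in Pkd1 and 7 in Pkd2. Slc5a8 (chromosome 10, 88885992 to 88929515), which reclaims lactate with sodium, had 2025, 1992 and 1710 counts in Pkd1 WT and 460, 124 and 391 in Pkd1 KO. In Pkd2 it had 2108, 2435 and 1802 in WT and 773, 1082 and 898 in KO. It was 5.87-fold lower in Pkd1 (-2.55 ± 0.40) and 2.31-fold lower in Pkd2 (-1.20 ± 0.14), and stayed past the test in each model whichever library was left out. Slc5a10, a mannose and fructose carrier, was at 153, 69.1 and 256 in Pkd1 KO against 1071, 1100 and 528 in WT (-2.49 ± 0.45), and had -1.38 ± 0.19 in Pkd2. Slc5a1 was 2.84-fold lower in Pkd1 and 1.65-fold lower in Pkd2, and Slc5a2 was 2.12-fold and 1.39-fold lower, though in Pkd2 it passed in 1 of 6 fits without a library. Slc5a6, the vitamin carrier, had the highest values of the family (-0.69 ± 0.26 and -0.07 ± 0.17) and did not pass. The lower calls of Slc2 included Slc2a5, the fructose carrier, at -1.69 ± 0.28 and -0.83 ± 0.19. Slc2a2 was lower in Pkd1 (-1.19 ± 0.24), and its -0.61 ± 0.20 in Pkd2 did not pass (adjusted p = 0.083 by edgeR). Slc2a1 (-0.20 ± 0.20 and -0.19 ± 0.16) and Slc2a3 (0.39 ± 0.27 and 0.31 ± 0.18), glucose carriers of many cell types, did not pass in either model.

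Slc22 had 11 of 21 members lower in Pkd1 and 12 in Pkd2, and 0 higher. Slc22a6 (chromosome 19, 8617996 to 8628299) had 988, 667 and 1470 counts in Pkd1 KO against 2279, 2271 and 2522 in WT, and 2187, 1867 and 1929 in Pkd2 KO against 3669, 3582 and 2859 in WT. The KO libraries were all below the WT libraries in each model, by 2.26-fold and 1.69-fold. Slc22a6 is a carrier that had not risen from P1 to P7 in WT. The same held for Slc22a2, which fell by 1.65 on the log2 scale in Pkd1 KO and by 0.89 in Pkd2 KO, and for Slc22a13, of the urate and organic anion carriers, at -2.18 ± 0.35 and -1.39 ± 0.15. Slc22a7 had the lowest log2 fold change of the family, -2.53 ± 0.75 and -2.20 ± 0.76, from 18.9 to 28.5 normalized counts in WT and 0 to 14.4 in KO, and did not pass. Slc22a3 had the highest, 0.76 ± 0.36 and 1.49 ± 0.61, and did not pass. Slc47a1 was lower in Pkd2 (-0.61 ± 0.14) and had -0.55 ± 0.21 in Pkd1 (adjusted p = 0.11 by edgeR).

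Among amino acid carriers, Slc3a1 (chromosome 17, 85028347 to 85064241), the heavy subunit of the apical cystine system, had 1138, 586 and 1024 counts in Pkd1 KO against 2773, 3544 and 2399 in WT, and 1692, 2149 and 2493 in Pkd2 KO against 3361, 3736 and 3049 in WT. It was 3.17-fold and 1.60-fold lower, and Slc7a9, the light subunit of that system, was among the genes that could not be followed. Slc7a13 (chromosome 4, 19818727 to 19842213), a light subunit that pairs with it, had 60.6, 35.6 and 85.4 in Pkd1 KO against 427, 445 and 484, and 81.1, 223 and 206 in Pkd2 KO against 571, 618 and 411. Its log2 fold changes of -2.89 ± 0.29 and -1.65 ± 0.33 ranked first in Pkd2 and second in Pkd1 among called falls from a WT mean of 100 or more normalized counts with no overlap of libraries. First in Pkd1 was Slc7a12 at -3.66 ± 0.59, with 26.3, 7.11 and 34.4 counts in KO against 250, 475 and 141 in WT; in Pkd2 it had -1.03 ± 0.30 and did not pass (adjusted p = 0.061 by edgeR). Slc6a19, the main neutral amino acid carrier of the brush border, fell by 2.45 (SE 0.35) in Pkd1 and by 0.90 (SE 0.15) in Pkd2, and Slc6a20b by 1.71 (SE 0.25) and 0.70 (SE 0.12). The glutamate carrier Slc1a1 had -1.55 ± 0.25 and -0.74 ± 0.11 and passed in each, while the glycine carrier Slc6a9 (0.31 ± 0.14 and -0.10 ± 0.17) did not.

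Of the ion carriers of the proximal tubule, Slc9a3 (chromosome 13, 74086255 to 74169442), the sodium-hydrogen exchanger through which most sodium is reclaimed, had 60.6, 50.8 and 82.7 counts in Pkd1 KO against 375, 635 and 266 in WT. In Pkd2 it had 290, 295 and 271 in KO against 513, 436 and 359 in WT. It was 6.56-fold lower in Pkd1 (-2.71 ± 0.35) and 1.53-fold lower in Pkd2 (-0.61 ± 0.13, adjusted p = 0.023 by edgeR), and in Pkd2 it passed in 1 of 6 fits without a library. Slc26a1, a sulfate exchanger, fell by 1.60 (SE 0.27) in Pkd1 and had -0.43 ± 0.15 in Pkd2 (0.088). Slc13a3 was 2.47-fold and 1.61-fold lower, and Slc13a2, the citrate carrier, was lower in each as well (-1.53 ± 0.29 and -0.79 ± 0.10). Slc13a1 rose most among the carriers of this family in WT, and did not pass in KO, at -0.73 ± 0.24 in Pkd1 (0.077) and -0.09 ± 0.13 in Pkd2 (0.70). In Pkd2 the values of Slc13a1 were 1776, 2151 and 1546 in WT and 1790, 1474 and 1874 in KO, and they overlapped.

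Of the monocarboxylate carriers, 8 of 11 Slc16 members were lower in Pkd1 and 6 in Pkd2, with medians of -0.73 and -0.41. Slc16a4 had -1.48 ± 0.23 and -0.96 ± 0.10 and Slc16a9 -1.23 ± 0.17 and -0.54 ± 0.09. Slc16a1 had the highest value in the family, 0.33 ± 0.20 and 0.21 ± 0.22, and did not pass. Slc27a2 fell to 3589, 1703 and 3340 counts in Pkd1 KO from 5798, 5804 and 6300 in WT, 2.07-fold lower, and was 1.62-fold lower in Pkd2. Slc18a1, a vesicular monoamine carrier, was lower in each (-1.36 ± 0.31 and -1.07 ± 0.13).

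Carriers placed outside the proximal tubule also moved. Slc26a7, an anion exchanger of acid-secreting cells, had 3.03, 5.08 and 18.6 counts in Pkd1 KO against 71.8, 120 and 39.6 in WT (-3.09 ± 0.68, adjusted p = 0.026 by edgeR), and -1.73 ± 0.51 in Pkd2 (0.062), whereas Slc26a8 of the same family had 0.09 ± 0.27 and -0.02 ± 0.29. The 3 intercalated cell markers that are not members were lower in each model. Slc4a5, a sodium bicarbonate cotransporter, fell in each (-1.45 ± 0.40 and -1.12 ± 0.23), passing in 1 of 6 fits without a library in Pkd1 (largest adjusted p = 0.13 by edgeR) and in 3 of 6 in Pkd2. Of the 4 osmolyte and urea carriers that met the count rule, Slc14a2 was lower in Pkd1 (-3.35 ± 0.89) and Slc5a3, which takes up myo-inositol, in Pkd2 (-0.95 ± 0.21), while 0 were higher and the medians were -1.29 and -0.87. These calls held in 1 of 6 fits without a library for Slc14a2 and in 3 of 6 for Slc5a3. The counts of Slc14a2, a gene with several transcript rows, may leave out part of its reads. Slc6a6, the taurine carrier, had -0.45 ± 0.13 (0.057) and -0.18 ± 0.07 (0.13). Slc6a12, the betaine carrier, had 187, 50.3 and 541 counts in Pkd2 WT and 19.0, 55.6 and 50.8 in KO, and its libraries overlapped. Slc12a9, of the cation chloride cotransporter family, had 0.15 ± 0.12 and -0.13 ± 0.08 and did not pass. Slc38a5 was lower in Pkd2 at under 40 counts in WT (-3.27 ± 0.59).

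Of the 34 mitochondrial Slc25 members, 7 were lower in each model and 1 was higher in Pkd2, with medians of -0.22 and -0.19. Slc25a4, an ADP/ATP carrier, had 9346, 8451 and 9512 counts in Pkd1 KO against 9027, 7802 and 10159 in WT, and 9241, 8697 and 9094 in Pkd2 KO against 10385, 10518 and 8820 in WT. Its log2 fold changes were 0.02 ± 0.13 and -0.14 ± 0.08. Slc25a5, its paralog, had 4429, 3782 and 6536 in Pkd1 KO against 11714, 11732 and 10759 in WT (-1.21 ± 0.19), and 12649, 11190 and 11109 in Pkd2 KO against 13830, 14308 and 11692 (-0.19 ± 0.09, adjusted p = 0.23 by edgeR). Processed copies of Slc25a5 exist in the genome, so that its count may be affected by shared reads. The coenzyme A carrier Slc25a42 fell in each (-1.20 ± 0.18 and -0.80 ± 0.07). The lowest average in the family was that of Slc25a21 (-1.70 ± 0.46 and -0.82 ± 0.39), at under 40 counts. Of 20 Slc35 nucleotide sugar carriers, 3 were lower in Pkd1, and 1 was lower and 1 higher in Pkd2, with medians of -0.07 and close to 0. The zinc carriers of Slc30 and Slc39 had 1 of 14 lower in Pkd1, and 1 lower and 2 higher in Pkd2. Over all transcripts 7.54% were lower and 6.2% higher in Pkd1, and 6.06% and 7.82% in Pkd2. With 20 and 14 members, the few calls of Slc35 and of the zinc carriers are not read as a result about these families. Slc39a7 had -0.97 ± 0.33 and 0.00 ± 0.17 and Slc30a3 1.03 ± 0.58 and 0.06 ± 0.76, and neither passed.

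Few members were higher in KO. In Pkd2, Slc7a5 (chromosome 8, 121881146 to 121907686) was at 761, 949 and 984 counts in KO against 329, 326 and 325 in WT, 2.75-fold higher (1.46 ± 0.11, adjusted p = 3.8e-04 by edgeR), and it passed whichever library was left out. In Pkd1 it was at 850, 467 and 590 in KO against 450, 368 and 311 in WT, and its 0.76 ± 0.23 did not pass (0.065). Of the 9 nutrient carriers of dividing cells, Slc7a5 in Pkd2 was the 1 called at P7; Slc1a5 had 0.22 ± 0.15 and 0.26 ± 0.08, Slc7a11 0.11 ± 0.36 and -0.38 ± 0.32, Slc38a1 0.37 ± 0.79 and 1.25 ± 0.39, and Slc3a2 -0.77 ± 0.56 and -0.51 ± 0.28. Mki67 and Top2a rose in Pkd2 KO and did not pass in Pkd1 KO, and their part in these values was not tested. Slc25a24, a mitochondrial ATP-magnesium and phosphate carrier, was at 1186, 1312 and 1494 in Pkd2 KO against 768, 846 and 846 in WT (0.70 ± 0.10), and had 0.36 ± 0.12 in Pkd1 (0.084). Also higher in Pkd2 were Slc38a4 (0.95 ± 0.23), Slc1a4 (0.60 ± 0.15), Slc35e4 (0.70 ± 0.11) and Slc39a6 (0.39 ± 0.07). Of these, Slc38a4 passed in 2 and Slc1a4 in 1 of 6 fits without a library. Slc11a1, the metal carrier of phagocytes, rose by 0.72 ± 0.15 in Pkd2, and of the 4 macrophage and leukocyte markers tested there 2 rose; their part in it was not tested. In Pkd1, Slc9a4, a sodium-hydrogen exchanger, was at 399, 327 and 146 counts in KO against 36.8, 95.8 and 49.97 in WT (2.25 ± 0.45), and Slc24a5 was 1.41-fold higher. Slc1a6, a glutamate carrier, rose by 1.66 ± 0.41 and 2.12 ± 0.51, from 2.85 to 9.21 counts in WT to 15.4 to 32.6 in KO, and it passed in 1 of 6 fits without a library in each model.

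At the earlier ages 0 members passed the test for KO against WT in either model (edgeR). At P1 these were 0 of 254 in Pkd1, with 4 members at an unadjusted p under 0.05 and 0 by DESeq2, and 0 in Pkd2, with 10 unadjusted and 1 by DESeq2. In each model 0% of transcripts were called. Over all transcripts 161 of 12527 in Pkd1 and 708 of 12633 in Pkd2 had an unadjusted p under 0.05. DESeq2 called 0 higher and 2 lower of them in Pkd1, and 28 and 5 in Pkd2. At P3, 0.00798% of transcripts were called in Pkd1, where 32 members had an unadjusted p under 0.05 and DESeq2 called 4. In Pkd2 0% were called, with 11 members unadjusted and 0 by DESeq2. Over all transcripts 1767 in Pkd1 and 563 in Pkd2 had an unadjusted p under 0.05. DESeq2 called 51 higher and 197 lower of them in Pkd1, and 33 and 5 in Pkd2. The member counts of Pkd1 at P3 lie near the shares of all transcripts. The smallest p-values in Pkd1 at P1 were those of Slc15a1 (-1.40 ± 0.47), Slc23a3 (0.30 ± 0.13) and Slc10a4 (-1.06 ± 0.45), and at P3 those of Slc25a36 (-0.39 ± 0.07), Slc35a3 (-0.41 ± 0.08) and Slc4a5 (-0.78 ± 0.16), each with an adjusted p of 0.16. In Pkd2 they were those of Slc4a5 (-0.92 ± 0.15, adjusted p = 0.48), Slc25a24 (0.32 ± 0.09) and Slc7a10 (0.86 ± 0.24) at P1, and of Slc38a4 (0.46 ± 0.10, 0.93), Slc27a1 (-0.28 ± 0.08) and Slc7a6 (0.22 ± 0.06) at P3. The proximal tubule list had medians of 0.03 and -0.15 at P1 and of -0.03 and close to 0 at P3.

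**Figure D4:**
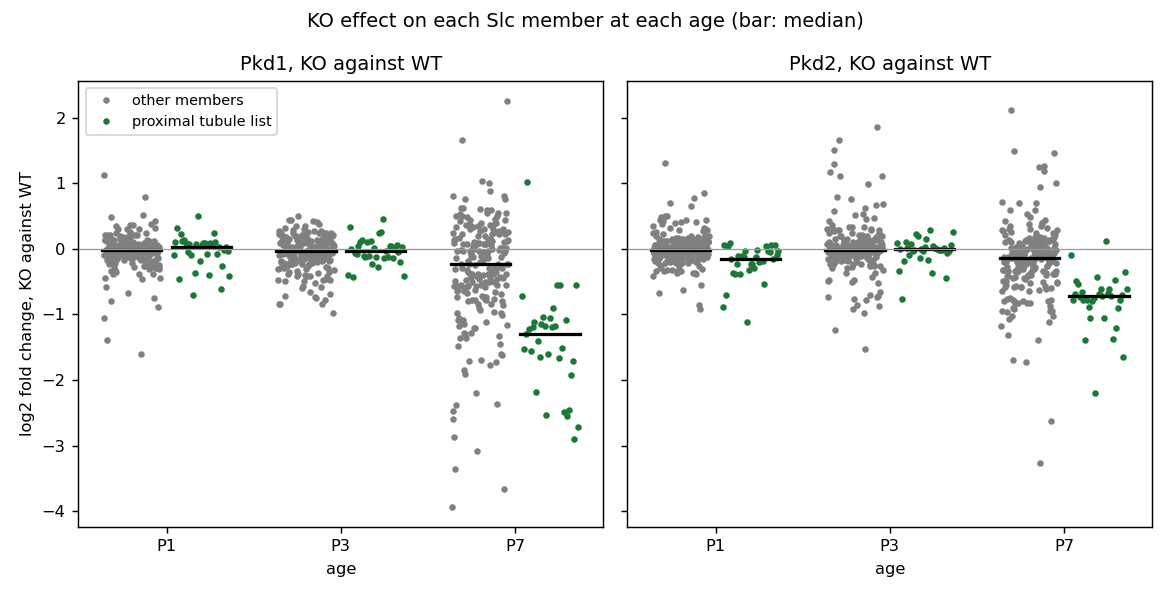
Log2 fold change of KO against WT for each member at P1, P3 and P7, with the 33 proximal tubule carriers in green, the other 221 members in grey and bars at the medians. The green medians lie between -0.15 and 0.03 at P1 and P3 and at -1.30 (Pkd1) and -0.72 (Pkd2) at P7.

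The difference of the KO effect between P7 and P1 was tested in a model of the 18 libraries of a Pkd model. In Pkd1, 42 members had a lower and 5 a higher effect at P7, against 4.1% and 3.66% of transcripts. With the replicate number as a block, which pairs the Pkd1 libraries at P1, 61 were lower and 5 higher, against 665 and 532 of all transcripts. With a term for Y-linked counts, a fit added after seeing the data, 0 members and 0 of all 12527 transcripts were called by edgeR. In that fit 21 members had an unadjusted p under 0.05. Within Pkd1 only WT P1 holds libraries with and without Y-linked counts. The smallest p-values were those of Slc16a9 (-1.45 ± 0.19), Slc5a1 (-1.75 ± 0.30) and Slc5a8 (-2.58 ± 0.45). The 5 higher were Slc9a4, Slc35e4, Slc1a6, Slc10a4 and Slc22a21, named because they were so few. The lower count was 15 without KO P1 replicate 2, 22 without KO P1 replicate 1 and 19 without KO P7 replicate 2. It was 24 without WT P1 replicate 3 and 20 without WT P7 replicate 1. In the same order, the lower counts over all transcripts were 150, 245, 201, 272 and 231. The higher count was 1 without KO P1 replicate 2 or WT P7 replicate 1, 2 without KO P1 replicate 1 or KO P7 replicate 1, 3 without KO P7 replicate 2, WT P1 replicate 3 or WT P7 replicate 2, and 8 without WT P7 replicate 3. In Pkd2, 0 members were lower by edgeR, against 0.174% of transcripts, 6 by DESeq2 and 6 by edgeR without WT P1 replicate 1. In either direction 40 members had an unadjusted p under 0.05. Over all transcripts DESeq2 called 113 lower, the fit without WT P1 replicate 1 called 75, and 1954 had an unadjusted p under 0.05. The 3 higher were Slc7a5 (1.46 ± 0.23), Slc39a6 (0.37 ± 0.08) and Slc2a13 (0.82 ± 0.19), against 1.12% of transcripts. With the Y-linked term 3 were lower and 1 higher, against 18 and 96 of all transcripts. The higher count was 1 without KO P1 replicate 1 or 3, KO P7 replicate 2 or 3, WT P1 replicate 3, or WT P7 replicate 1 or 3.

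Between the models, the KO effect at P7 was compared in the 12 libraries of P7. By edgeR 0 members differed, as did 0% of transcripts, with 51 members at an unadjusted p under 0.05 and 15 called by DESeq2. Over all 12343 transcripts 2130 had an unadjusted p under 0.05, and DESeq2 called 120 higher and 286 lower. The smallest p-values were those of Slc9a3 (Pkd1 minus Pkd2 -2.08 ± 0.39, adjusted p = 0.10), Slc35e1 (-0.93 ± 0.18, 0.10) and Slc25a5 (-1.005 ± 0.24, 0.13). Of the 33 proximal tubule carriers 31 had the lower effect in Pkd1, with a median difference of -0.61. Without Pkd1 WT P7 replicate 3, 26 members were called, beside 687 higher and 762 lower of all transcripts, so that the members did not stand out. Without Pkd1 KO P7 replicate 3, 1 member was called, beside 1 higher and 25 lower of all transcripts. Over the 254 members the KO effects of the models had a Pearson r of 0.66 and a Spearman rho of 0.73 as a description, and over all 12343 transcripts tested in both models 0.52 and 0.52.

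The WT change of one model and the KO effect of the other share no library, and were set side by side. Of the 54 members that rose in Pkd2 WT, 30 (55.6%) were lower in Pkd1 KO, and these were 40.5% of those lower in Pkd1 KO. For all transcripts the shares were 22.6% and 27.2%. Of the 50 that rose in Pkd1 WT, 32 (64.0%) were lower in Pkd2 KO, or 52.5% of those lower in Pkd2 KO, against 31.0% and 44.8% for all transcripts. Of the 14 that fell in Pkd1 WT, 4 (28.6%) were higher in Pkd2 KO, near the 23.4% for all transcripts, and 0 were lower. Of the 14 that fell in Pkd2 WT, 0 were higher in Pkd1 KO, against 217 of 1280 for all transcripts. The Pearson r across members was -0.35 and -0.43, and the Spearman rho -0.44 and -0.56. Over all 12343 transcripts tested in both models the Pearson r was -0.17 and -0.21, and the Spearman rho -0.22 and -0.27. The remainder of the lower members had not risen past the test in WT of the other model. Among them, Slc5a8, Slc7a13, Slc9a3, Slc22a2, Slc22a6 and Slc22a13 had not done so in either model. Slc14a2 and Slc5a1, lower in Pkd1 KO, had risen past it in Pkd1 WT but not in Pkd2 WT.

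**Figure D5:**
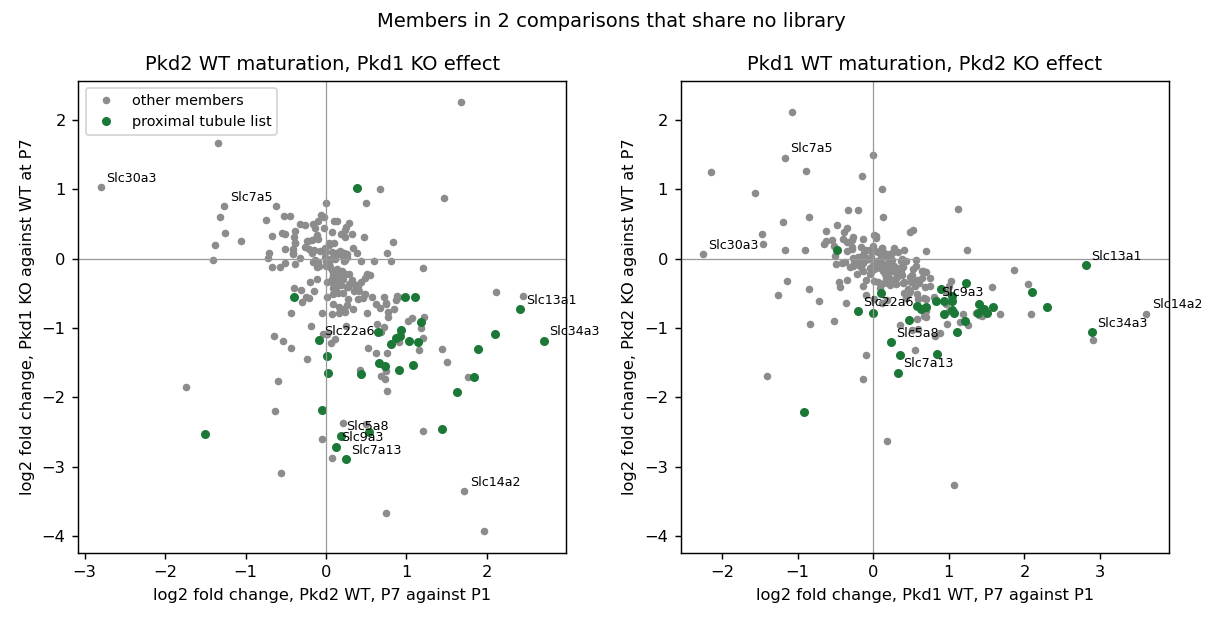
Log2 fold change of each member in WT from P1 to P7 (horizontal axis) and in KO against WT at P7 in the other model (vertical axis), with proximal tubule carriers in green and other members in grey. Slc34a3 lies high on the horizontal axis and below 0 on the vertical axis in both panels, Slc7a13 and Slc5a8 lie near 0 and well below 0, and Slc7a5 lies at a negative WT change and a positive KO effect.

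Of 10 listed genes that act with these carriers, 7 were tested. In Pkd1 KO 6 of the 7 were lower and in Pkd2 KO 5, and 0 were higher. Hnf4a, a transcription factor of the proximal tubule, had -0.98 in Pkd1 and -0.57 in Pkd2 and passed in each. Cltrn, which helps Slc6a19 to the brush border, was lower in each (-0.62 and -0.57), as was the sodium pump subunit Atp1b1 (-0.56 and -0.52, with an adjusted p of 0.050 and 0.0084). Fxyd2, a small subunit of the pump, had -1.43 and -0.62 and passed in each. Bsg, which carries Slc16 members to the membrane, had -0.68 and -0.52 and did not pass. The scaffold gene Slc9a3r1 had -0.38 ± 0.20 and -0.35 ± 0.10 and did not pass, while Slc9a3r2 was lower in Pkd1 (-1.16 ± 0.26). Of 14 Slco genes, the organic anion carriers outside the Slc naming, 8 were tested, with 3 lower and 1 higher in Pkd1 and 2 lower and 1 higher in Pkd2. Slco1a6 and Slco2a1 were lower and Slco5a1 higher in each.

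As Hnf4a was among these genes, the promoters of the members were searched for the motif of its family. Promoter sequences (RefSeq, GRCm38.p6, 250 bases before to 50 bases after each gene start) were held for 27 of the 33 proximal tubule carriers, in 31 windows, and for 169 of the other members, in 211 windows. The HNF4 motif CAAAGTCCA with at most 1 mismatch on either strand was in 7 (22.6%) of the proximal tubule windows, 24 (11.4%) of the other windows and 8.47% of all 32851 windows. Of the 7, 3 belong to the neighbours Slc22a19, Slc22a28 and Slc22a30, whose sites and flanks are nearly or fully alike, so that they are not separate cases. A match is a run of letters and not a measured binding site. Members outside the proximal tubule list had sites too. Among them were Slc16a4, whose fall is described above, with 1 mismatch, and Slc30a3, which did not pass in KO, without a mismatch. The sites shown are those of proximal tubule carriers whose fall is described above, in the direction of the gene, with the motif in capitals. The one for Slc3a1 matches the HNF4 motif without a mismatch, 35 bases before the gene start, on the strand of the gene at chr17:85028302-85028322. That of Slc34a1 (chr13:55399634-55399654) lies 4 bases before one of its annotated starts, that of Slc13a3 (chr2:165473356-165473376, a gene on the minus strand) 169 bases before its start, and that of Slc5a8 (chr10:88885793-88885813) 189 bases before its start, each on the opposite strand of the gene and with 1 mismatch.
Slc3a1, HNF4: gctggaCAAAGTCCAgccatg
Slc34a1, HNF4: tcattaAGGACTTTGcccttg
Slc13a3, HNF4: cccaccTGGGCTTTGccccat
Slc5a8, HNF4: aggaccTGGACTGTGaactgg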

How the data were processed

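Total kidney RNA was sequenced by the authors on a HiSeq 2000. Per the labels and the study's methods, the authors called bases with CASAVA 1.8.2, aligned reads to mm10 with TopHat2 2.1.0 and counted them per RefSeq transcript with HTSeq at default options. The deposited values are raw read counts for 29996 transcripts, and 28978 of them could be paired with a symbol. HTSeq at default leaves out reads that overlap more than 1 feature.

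Members were the transcripts with the highest mean of each Slc gene that met the rule given in the report. The members and gene lists were chosen with earlier results of these data known. Within each model of 18 libraries, edgeR 4.0.16 (TMM factors, quasi-likelihood test, R 4.3.3) was run on transcripts reaching 10 counts in at least 3 of them, with the 9 WT libraries fitted for age and the 6 libraries of an age for KO. P-values were adjusted by Benjamini-Hochberg over all transcripts tested. Normalized counts are counts scaled to the mean effective library size of the model. All errors of log2 fold changes are SE derived from the F statistic. With 3 libraries a group, depth (7179152 to 15850818 counts) limits low genes, and p-values cover the spread between libraries only.

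The genes named with values were the 6 largest rises and falls in each main comparison (no overlap between groups, a mean of 100 or more normalized counts in the higher one), the smallest 3 p-values of the other tests, the highest and lowest members of families with 5 or more members, and a list of carriers and partners. Slc13a2, Slc22a21, Slc22a29, Slc25a3, Slc25a4 and Slc25a42 were named after their values were seen. Same-numbered WT and KO libraries deviated together in Pkd1 at P1 (correlations of 0.33, 0.18 and 0.49), so that the replicate number pairs them there, and not at the other ages of Pkd1. Alternatives were DESeq2 1.42.0, other size factors, filters, a replicate block, Y-linked counts as covariate, summed rows, and leaving out each library. A GC content and length correction, a count over members with 1 row, Y-linked counts in the test between ages and the P3 contrasts without Pkd2 WT P3 replicate 2 were added after seeing the data. Chromosome positions are from RefSeq GRCm38.p6, which is mm10. Values of a few genes and of another promoter motif searched are not reported here.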

Additional observations from a re-analysis of the deposited data

Results flagged for a closer look

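With 3 libraries a group, no group was large enough for a search for outlying samples. The results here are flagged because the KO effect was tested at P7 against P1 within a model and differed between the ages (edgeR quasi-likelihood test of the interaction, Benjamini-Hochberg over all transcripts).

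In Pkd1 the KO effect was lower at P7 than at P1 for 42 members and higher for 5. Among the lower, Slc16a9 had a difference of -1.45, Slc5a1 of -1.75 and Slc5a8 of -2.58 on the log2 scale. At P7 the presence of Y-linked counts separates Pkd1 WT from Pkd1 KO, and at P1 it was in 2 of 3 WT and 0 of 3 KO libraries. A fit with that presence as a term, which rests on the WT libraries at P1, called 0 members and 0 of all 12527 transcripts (edgeR). In that fit 21 members had an unadjusted p under 0.05.

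In Pkd2 the KO effect was higher at P7 for 3 members: Slc7a5 by 1.46, Slc39a6 by 0.37 and Slc2a13 by 0.82. For Slc7a5 the 3 KO libraries at P7 were all above the 3 WT libraries.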

How the results depend on the processing

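The calls of the postnatal change and of the KO effect at P7 kept their direction under every alternative run for the named genes, and the number of called members depended on the fit. In Pkd1 WT from P1 to P7, the 50 higher and 14 lower members became 29 higher with a 2-fold minimum and 3 and 3 with Y-linked counts as covariate, and ranged over 31 to 51 and 9 to 18 without 1 library. In Pkd2 WT, 54 and 14 became 23 and 7 with a 2-fold minimum, and ranged over 19 to 59 and 6 to 16. For Pkd1 KO at P7, 3 higher became 11 with DESeq2, 12 with a GC content and length correction and 12 with all 18 libraries in one fit. With Y-linked counts added to that fit, 0 were higher, and the 74 lower became 0. It then called 5 higher and 1 lower of all 12527 transcripts, against 1816 and 2066 without Y-linked counts. The ranges without 1 library were 0 to 12 and 20 to 86. For Pkd2 KO, 12 and 61 became 4 and 9 with a 2-fold minimum, with ranges of 4 to 12 and 31 to 77. The difference of the KO effect between ages in Pkd1 had 5 higher and 42 lower, 2 higher with no low-count filter, 0 and 0 with Y-linked counts as covariate and 61 lower with the replicate block, with ranges of 1 to 8 and 15 to 62. In Pkd2 it had 3 higher, 1 with no low-count filter, 1 with the replicate block and 1 with Y-linked counts as covariate, and 0 lower, 6 with DESeq2 and 3 with Y-linked counts, with ranges of 1 to 3 and 0 to 6. DESeq2 called 4 members in Pkd1 KO at P3, 1 in Pkd2 KO at P1, and 19 and 16 between P3 and P1 in Pkd1 and Pkd2 WT. It called 29 in place of 14 between P7 and P3 in Pkd1 WT, where Y-linked counts separate the ages. Between the models at P7 it called 15 in place of 0, where the range without 1 library was 0 to 26. Over all transcripts DESeq2 called 51 higher and 197 lower in Pkd1 KO at P3, and 120 and 286 between the models. Without Pkd2 WT P3 replicate 2, 2 members in place of 0 were called between P3 and P1 and 38 in place of 53 between P7 and P3. At P1 and P3 the counts of 0 for KO stayed 0 without any 1 library. The cause of these shifts was not tested. The replicate block gave 50 lower and 2 higher members in Pkd1 KO at P7 and 53 and 10 in Pkd2, and left the count at 0 for Pkd1 KO at P1, where the numbers pair the samples. In Pkd1 the median log2 fold change of the members was -0.30 after the GC content and length correction, against -0.36.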
